A study of Mus musculus with 4 samples.

Results

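The genes described here are 24 precursors of neuropeptides, 6 granins and 5 genes of precursor cleavage and amidation, measured in mouse hippocampus after defeat by other males, a procedure called R-SDS (repeated social defeat stress). The 35 genes were listed by symbol, and 34 of them had a row on the array whose platform annotation gave a single gene symbol, among 19938 such genes in all. Each of the 34 had 1 such row. Pcsk2, the gene of prohormone convertase 2, had no single-symbol row and was not analysed here. The R-SDS group held 2 arrays and the Control group 2, each made from hippocampal total RNA of male C57BL/6JJmsSlc mice aged 11 to 12 weeks. An R-SDS mouse met an aggressive male of the ICR strain for 10 min a day over 10 days, and a divider kept the pair apart for the rest of each day. Control mice lived in pairs on either side of a divider, with a new partner every day and no defeat. The study describes the defeated mice it put on arrays as susceptible, which the labels do not state, and no array of a resilient mouse was analysed here. The array was the Affymetrix Mouse Gene 1.0 ST, and its values are on the log2 scale of the robust multi-array average (RMA), so that a difference of 1 stands for a doubling of the signal.

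Neuropeptides are made as long precursors that enter the secretory pathway, are sorted into dense-core vesicles together with granins, and are cut there by prohormone convertases. Carboxypeptidase E then trims the basic residues left at the cut, and many peptides receive a terminal amide from the enzyme made by Pam. In the hippocampus, peptides such as somatostatin and neuropeptide Y are best known from GABA interneurons, while dynorphin and enkephalin are also made by the granule cells of the dentate gyrus, whose mossy fibres release them in CA3. Several listed precursors, such as those of orexin, oxytocin and melanin-concentrating hormone, are best known from the hypothalamus, from which fibres but not cell bodies reach the hippocampus.

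None of the 34 genes passed the test for a difference between R-SDS and Control hippocampus, and 0% of all genes did (limma, Benjamini-Hochberg adjusted p under 0.05). The enkephalin precursor Penk lay furthest from Control, lower in both R-SDS mice, and the precursors of substance P (Tac1), neurotensin (Nts), pro-opiomelanocortin (Pomc), dynorphin (Pdyn) and neuromedin B (Nmb) and the granin Scg5 also had both R-SDS values below both Control values. These 7 genes are 20.6% of the 34, against 8.81% of all genes. Several cleared the Control values narrowly, such as Pdyn, with a higher R-SDS value of 5.68 and a lower Control value of 5.71. The list was chosen with earlier results of these data known, so these shares only describe it. Crh, the precursor of corticotropin-releasing hormone, was the only one of the 34 with both R-SDS values above both Control values, against 9.52% of all genes. Sst, Cck, Cpe and Scg3, which gave bright rows, had differences between -0.08 and 0.07.

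The smallest adjusted p over all transcripts was 0.264 in limma, and the adjusted p of each of the 34 genes was 1. An unadjusted p under 0.05 was met by 196 of the 19938 genes and by 1 of the 34 in limma, and by none of the 34 in the methods' t-test. None of the 34 met the thresholds of the study, an absolute log2 difference over 0.5 with an unadjusted p under 0.05, which 0.331% of all genes met. With 2 arrays a group, an exact two-sided permutation test of a single gene cannot give a p below 0.333. Nothing in the labels says how the samples of a group relate beyond their number, so each p measures the spread between these samples only. In tissue of many cell types, fewer cells of a type and less RNA in each cell cannot be told apart.

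**Figure D1:**
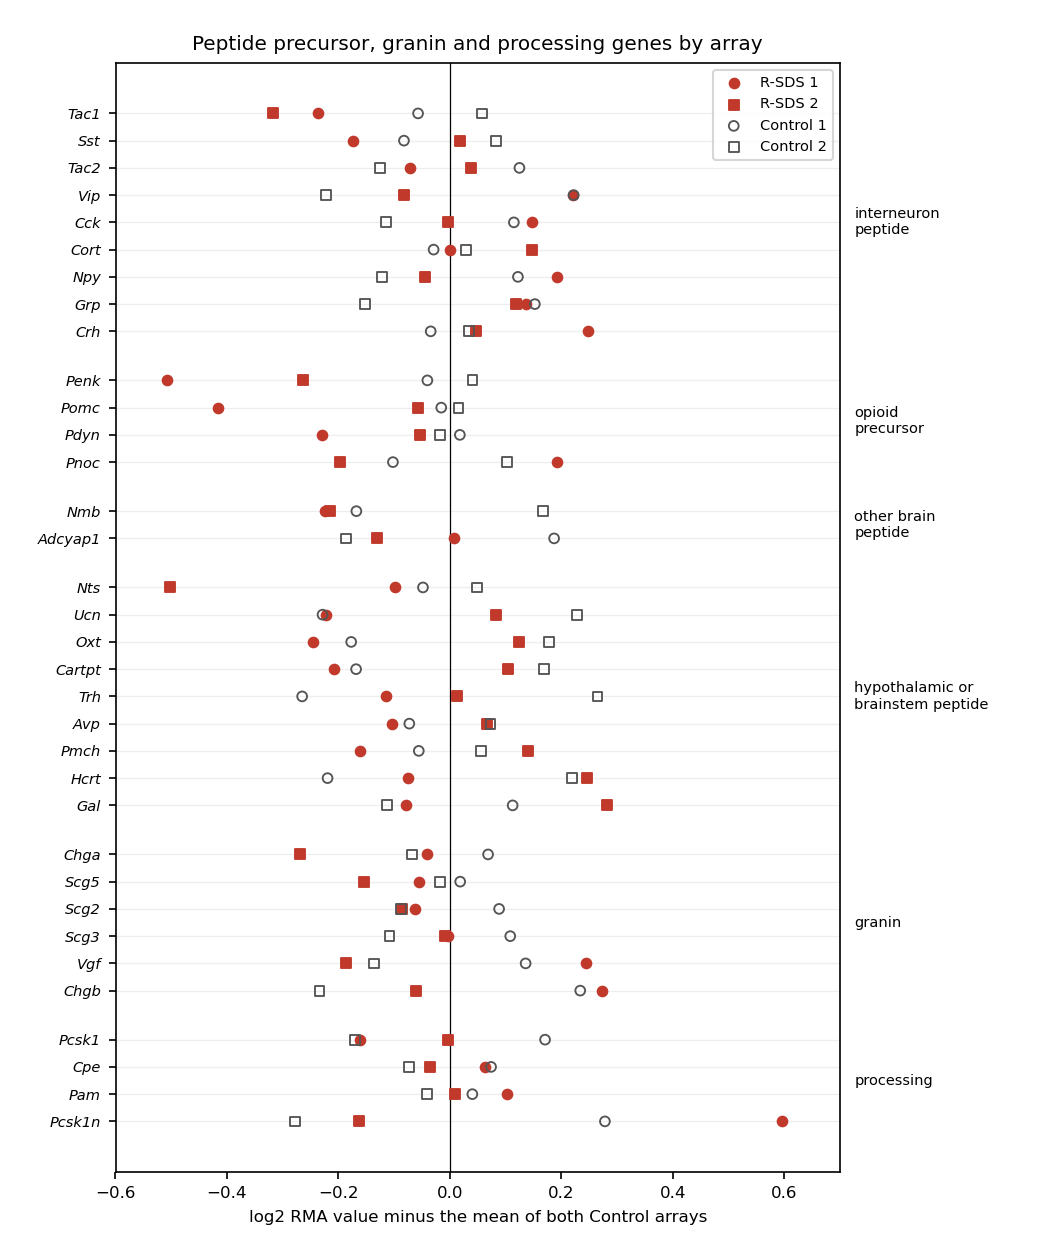
Each row is a gene, and the horizontal axis gives its log2 RMA value in an array minus the mean of both Control arrays; filled red symbols are R-SDS arrays, open symbols Control arrays, circles replicate 1 and squares replicate 2. Red symbols lie wholly left of the open ones for Penk, Pomc, Pdyn, Tac1, Nmb, Nts and Scg5 and wholly right of them for Crh, and overlap them in the other rows.

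The arrays were first compared with the tissue and with one another. All 10 markers of hippocampal principal cells had a row, with mean log2 values between 6.94 and 10.1. Their median difference was 0.08, and the granule cell markers C1ql2 and Dsp had the largest ones, both 0.39, while Prox1, a marker of the same cells, had 0.03 (SE 0.14). Choroid plexus genes set the arrays apart. The summed linear signal of the 9 measured markers of that epithelium, of 10 listed, reached 13300 for R-SDS 1 and 829 for R-SDS 2, against 3210 in Control 1 and 554 in Control 2, and each of the 9 averaged higher in the R-SDS group. These sums weigh the brightest marker most, which in every array was Ttr, at log2 13.21 for R-SDS 1 and 11.38 for Control 1. By the median log2 value of the 9 markers only R-SDS 1 stood apart, at 8.63. Control 1 and R-SDS 2 shared a median of 5.56, and Control 2 had 5.42. The arrays numbered 2 thus have the lower sum of their group, but by the median Control 1 was no richer than R-SDS 2. Differences between the arrays numbered 2 are given for the genes without overlap among the 34 and for the 34 as a whole. The markers of pituitary endocrine cells (7 of 8 measured) summed to 221 and 237 in the R-SDS arrays, against 201 and 260 in the Control arrays. Hypothalamus markers (7 of 8) summed to 374 and 403 in the R-SDS arrays, against 358 and 439 in the Control arrays. Striatum and amygdala markers (5 of 7) summed to 662 and 581 in the R-SDS arrays, against 568 and 652 in the Control arrays. Thalamus and habenula markers (8 of 8) summed to 1030 in each R-SDS array, against 1090 and 1080 in the Control arrays. An array gives no zero, so which of these markers are unexpressed cannot be read from it, and the part of such tissue in the peptide values was not tested.

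Each of the 4 opioid precursors averaged lower in R-SDS, and 3 of the 4 did not overlap between groups. A lower mean was found in 46.5% of all genes, and a lower level without overlap in 8.81%. These 4 were made a group after their values were seen, so the counts only describe them. Penk encodes preproenkephalin, from which several copies of enkephalin are cut. Penk had log2 values of 8.60 and 8.85 in R-SDS hippocampus and 9.07 and 9.15 in Control hippocampus. The higher R-SDS value thus lay below the lower Control value, although the R-SDS mice differed from each other by more than the Control mice did. The difference of -0.39 (SE 0.15, 95% interval -0.74 to -0.03) equals a fold of 0.765, with an unadjusted p of 0.0384 and an adjusted p of 1 in limma. An unadjusted p under 0.05 with a lower R-SDS mean was met by 0.522% of all genes, and Penk was the only one of the 34 to meet it. Penk differed by -0.47 between the arrays numbered 1 and by -0.30 between those numbered 2.

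Pomc, whose product is cut into beta-endorphin, corticotropin and melanocortins, had log2 values of 5.56 and 5.92 in R-SDS and 5.96 and 5.99 in Control. The lower mean rests mainly on R-SDS 1, which differed from the Control mean by -0.42, while R-SDS 2 differed from it by -0.06. The difference of means was -0.24 (SE 0.16), and that between the arrays numbered 2 was -0.07. Pdyn, the dynorphin precursor gene, had values of 5.50 and 5.68 in R-SDS and 5.75 and 5.71 in Control, with a difference of -0.14 (SE 0.14). Again R-SDS 1 was the lower of the R-SDS mice, and the difference between the arrays numbered 2 was -0.04. Pnoc, the precursor of nociceptin, had values of 6.82 and 6.43 in R-SDS and 6.52 and 6.73 in Control, with a mean difference under 0.01 in size. The R-SDS mice lay on either side of both Control mice for Pnoc, with R-SDS 1 minus Control 1 at 0.29 and R-SDS 2 minus Control 2 at -0.30. Granule cells also make enkephalin and dynorphin, and their markers C1ql2, Dsp and Prox1 averaged higher in R-SDS, by 0.39, 0.39 and 0.03. C1ql2 had values of 8.47 and 8.09 in R-SDS and 8.02 and 7.76 in Control. Dsp had 7.39 and 6.89 in R-SDS and 6.92 and 6.57 in Control, so its groups overlapped. Prox1 had 8.38 and 8.47 in R-SDS and 8.49 and 8.30 in Control, lower at number 1 and higher at number 2. The part of granule cells in the Penk and Pdyn values was not tested.

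**Figure D2:**
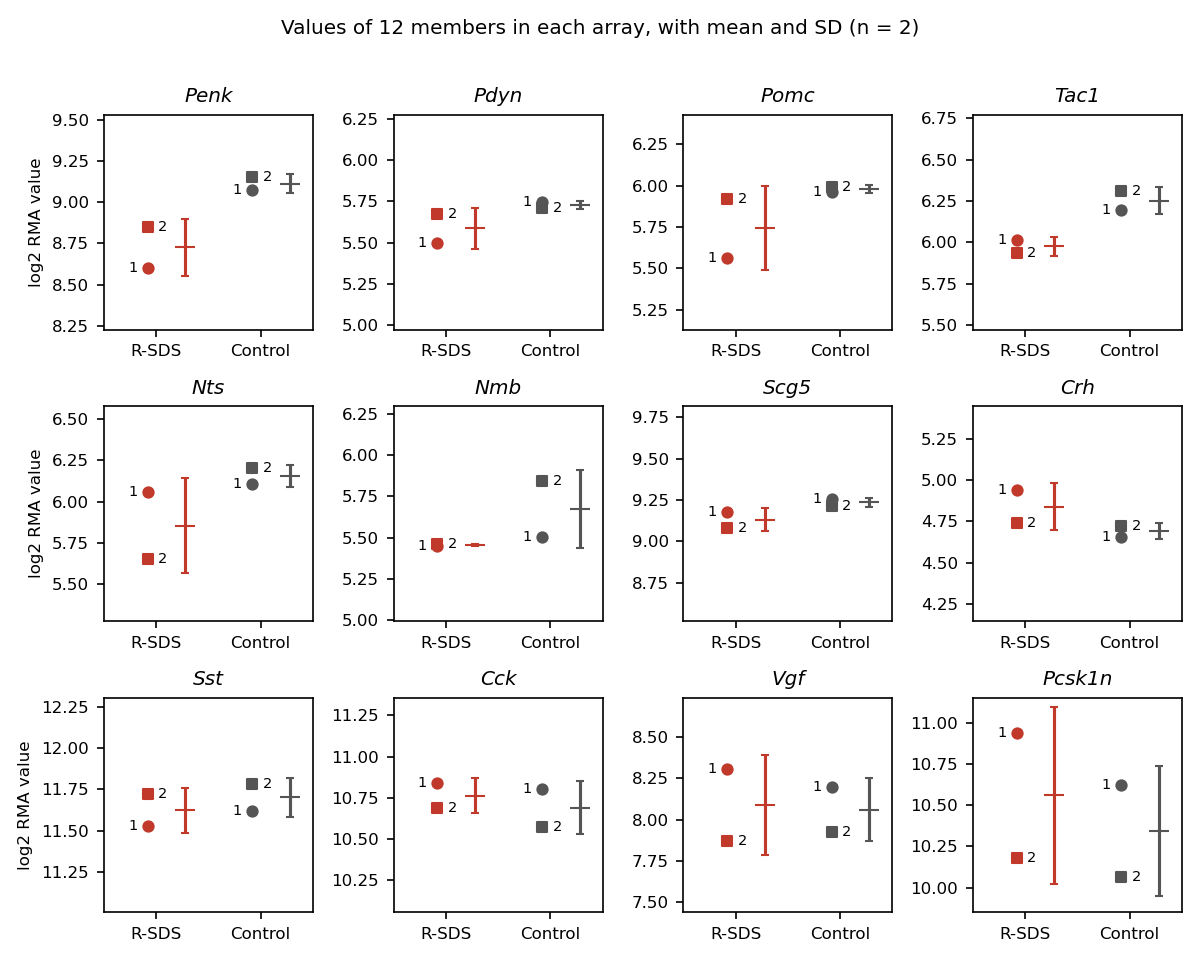
Log2 RMA values of 12 genes in the R-SDS arrays (red, left) and Control arrays (grey, right), with the replicate number beside each point and the mean and SD (n = 2) to its right. The vertical axes start above 0 and differ between panels. Penk is lower in both R-SDS mice, Pomc and Pdyn mostly in R-SDS 1, Nts mostly in R-SDS 2, and Pcsk1n and Vgf are split by replicate number in both groups.

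Among the 11 listed precursors known from interneurons, 6 had a higher and 5 a lower mean in R-SDS, with a median difference of 0.07. Penk and Pnoc, 2 of the lower ones, were given with the opioid precursors, which leaves 6 higher and 3 lower of 9. The median over the 11 was -0.00188 between the arrays numbered 1, where 6 were lower in R-SDS. Between those numbered 2 it was 0.08, and 4 were lower. Tac1, the gene of the tachykinins substance P and neurokinin A, had log2 values of 6.02 and 5.93 in R-SDS and 6.20 and 6.31 in Control. Neither R-SDS mouse reached a Control mouse, and the gaps inside the groups, 0.08 in R-SDS and 0.11 in Control, were smaller than the difference of -0.28 (SE 0.13, 95% interval -0.60 to 0.05). Tac1 differed by -0.18 between the arrays numbered 1 and by -0.37 between those numbered 2. Crh, the stress hormone precursor that hippocampal interneurons also make, had values of 4.94 and 4.74 in R-SDS and 4.66 and 4.72 in Control. R-SDS 2 lay only 0.01 above Control 2, and the mean of Crh over the arrays was under the lower quartile of all named rows, 4.99. The Crh difference was 0.15 (SE 0.14), and after a further quantile normalisation of the arrays its groups overlapped.

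Sst, the somatostatin gene, had log2 values of 11.53 and 11.72 in R-SDS and 11.62 and 11.78 in Control. The groups interleaved, and in each group the mouse numbered 2 had the higher value. The Sst difference was -0.08 (SE 0.15, 95% interval -0.43 to 0.28). Cck, the cholecystokinin gene, which pyramidal cells as well as basket cells express, had values of 10.84 and 10.69 in R-SDS and 10.81 and 10.58 in Control. Here the mice numbered 1 were the higher ones, and the difference was 0.07 (SE 0.15, 95% interval -0.29 to 0.44). The genes of neuropeptide Y (Npy, difference 0.07, SE 0.16), vasoactive intestinal peptide (Vip, 0.07, SE 0.20), cortistatin (Cort, 0.07, SE 0.13) and gastrin-releasing peptide (Grp, 0.13, SE 0.15) also overlapped between groups. So did Tac2, the neurokinin B gene, with a difference of -0.02 (SE 0.15). Of 14 listed markers of GABA interneurons that are no peptides, 13 were measured. In R-SDS 1 had a higher and 12 a lower mean, with a median of -0.04, while 46.5% of all genes had a lower mean. Between the arrays numbered 1, 7 of the 13 were lower, between those numbered 2, 8 were, and only 3 were lower at both numbers. Calb2, the calretinin gene, had the lowest difference of the 13, -0.43 (SE 0.19). Its values were 7.35 and 7.87 in R-SDS and 8.04 in each Control mouse. The part of interneuron number in the peptide values was not tested.

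Of the 10 listed precursors best known from hypothalamus or brainstem, 2 had a higher and 8 a lower mean, with a median of -0.05 and of -0.06 between the arrays numbered 2. Pomc, 1 of the lower ones, was given with the opioid precursors. Nts, from which neurotensin and neuromedin N are cut, had log2 values of 6.06 and 5.65 in R-SDS and 6.11 and 6.20 in Control. The low value of R-SDS 2 made most of the difference of -0.30 (SE 0.17, 95% interval -0.72 to 0.12). R-SDS 1 minus Control 1 was -0.05, while R-SDS 2 minus Control 2 was -0.55. The other 8 genes overlapped between the groups, and their differences ran between -0.07 for Ucn, the urocortin gene, and 0.10 for Gal, the galanin gene. They comprised Avp (vasopressin, -0.02), Oxt (oxytocin, -0.06), Hcrt (the orexin precursor, 0.09), Pmch (melanin-concentrating hormone, -0.01), Cartpt (the CART peptide precursor, -0.05) and Trh (thyrotropin-releasing hormone, -0.05). Gal and Pmch, with Crh, were the 3 genes whose mean lay under the lower quartile of 4.99, and 31 genes lay above it. The values of such dim rows may be mostly background, which an RMA table does not separate. The quartile does not mark where background ends. Nmb, Pdyn, Pomc, Nts and Tac1, lower without overlap, had means from 5.56 (Nmb) to 6.11 (Tac1). Hcrt (5.57), Avp (5.77) and Oxt (6.65), best known from the hypothalamus, had means in or above that range. The part of background in these values was not tested.

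Nmb and Adcyap1, the precursors of neuromedin B and of the pituitary adenylate cyclase-activating peptide PACAP, both had a lower mean in R-SDS. Nmb had log2 values of 5.45 and 5.46 in R-SDS and 5.51 and 5.84 in Control. The R-SDS mice were alike, and the difference of -0.22 (SE 0.16) came mainly from the high value of Control 2, with -0.06 between the arrays numbered 1 and -0.38 between those numbered 2. Adcyap1 overlapped between the groups, with a difference of -0.06 (SE 0.17).

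The granins, acidic proteins that help to form dense-core vesicles, had differences between -0.15 and 0.11. Scg5, also known as 7B2, the chaperone of prohormone convertase 2, had log2 values of 9.18 and 9.08 in R-SDS and 9.25 and 9.22 in Control. Both R-SDS values lay just below the Control values, with differences of -0.07 between the arrays numbered 1 and -0.13 between those numbered 2, and the difference was -0.10 (SE 0.13). Chga, chromogranin A, was lower than its number-matched Control in both R-SDS mice, with values of 9.69 and 9.47 in R-SDS and 9.80 and 9.67 in Control, but the groups overlapped and the difference was -0.15 (SE 0.15). Chgb, chromogranin B, had values of 10.38 and 10.04 in R-SDS and 10.34 and 9.87 in Control. The mice numbered 1 lay above those numbered 2 in each group, by 0.33 in R-SDS and 0.47 in Control, while the groups differed by 0.11 (SE 0.21). Scg3, which binds chromogranin A to the vesicle membrane, had values of 10.80 and 10.79 in R-SDS and 10.91 and 10.69 in Control, with a difference of -0.01 (SE 0.14). Scg2, the precursor of secretoneurin, had a difference of -0.07 (SE 0.14). Vgf, a granin induced by neurotrophins and cut into several peptides, had values of 8.31 and 7.87 in R-SDS and 8.20 and 7.92 in Control. The R-SDS mice enclosed the Control mice, and the gap between the R-SDS mice was 0.43, while the groups differed by 0.03 (SE 0.19, 95% interval -0.44 to 0.50).

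Of the processing genes, 3 of 4 had a higher mean in R-SDS, and the groups overlapped in each. Cpe, carboxypeptidase E, had log2 values of 12.19 and 12.09 in R-SDS and 12.20 and 12.06 in Control, with a difference of 0.01 (SE 0.14, 95% interval -0.32 to 0.35). The values of the groups were nearly the same at equal number. Pcsk1n, which encodes proSAAS, the inhibitor of prohormone convertase 1, had the largest spread of the 34 genes, with values of 10.94 and 10.18 in R-SDS and 10.62 and 10.06 in Control. The mice of the R-SDS group were 0.76 apart and those of the Control group 0.56, and the difference of 0.22 between the groups had an SE of 0.30 (95% interval -0.51 to 0.94). Pcsk1, the convertase itself, had a difference of -0.08 (SE 0.17), with R-SDS 1 minus Control 1 at -0.33 and R-SDS 2 minus Control 2 at 0.17. Pam, the amidating enzyme, was higher at both numbers, by 0.06 and 0.05, with overlapping groups and a difference of 0.06 (SE 0.13).

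Over the 34 genes, 21 had a lower mean in R-SDS, or 61.8%, against 46.5% of all genes. The median difference was -0.02 against 0.01 over all genes. Between the arrays numbered 1 the median was -0.0451 against 0.00996 over all genes. Between those numbered 2 it was 0.008 against 0.00873. The count of lower genes also differed between the replicate numbers. Of the 34, 22 were lower in R-SDS 1 than in Control 1, or 64.7% against 47.0% of all genes, and 16 were lower in R-SDS 2 than in Control 2, or 47.1% against 47.2%. The pair numbered 2 is 1 array against 1, with lower choroid plexus sums than the pair numbered 1, of which only R-SDS 1 had a high marker median. Within it Ttr, a marker of that epithelium, differed by 1.36, while 5 of the 9 markers were lower in R-SDS. The part of choroid plexus or of the arrays' range in these counts was not tested. The differences had the same sign at both numbers in 20 of the 34 genes, or 58.8%, against 50.4% of all genes, 12 of them lower and 8 higher. The absolute difference was larger than its SE in 8 of the 34, or 23.5%, against 18.3% of all genes. It exceeded the gaps between mice inside both groups in 3 of the 34, or 8.82%, against 11.0% of all genes. The median absolute difference was 0.0739 over the 34 genes and 0.0744 over all genes.

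**Figure D3:**
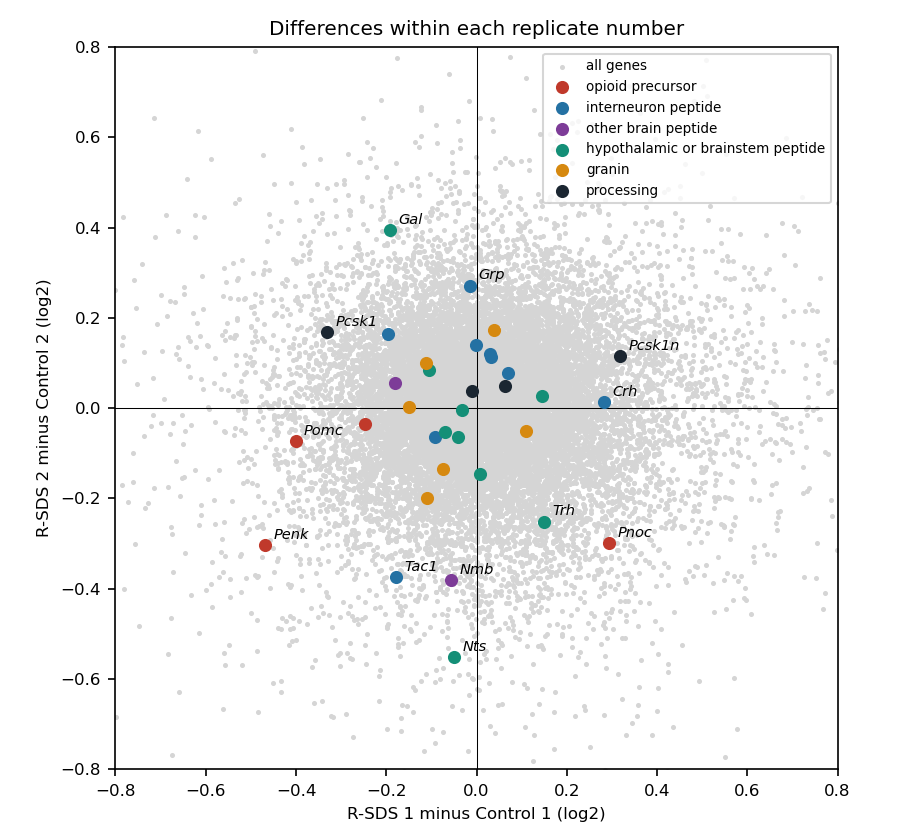
The horizontal axis gives R-SDS 1 minus Control 1 and the vertical axis R-SDS 2 minus Control 2, both in log2 units; coloured points are the 34 genes by role and grey points all genes, of which 182 lie outside the plotted range of 0.8. Penk, Tac1 and Nmb lie in the lower left field, with Nts far down and Pomc far left, and the other coloured points surround the origin.

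The median gap between the mice of 1 group was larger than the median absolute difference between the groups' means, both for the 34 genes and for all genes. A gap between single arrays spreads more widely than a difference of means, so this order alone shows nothing about R-SDS. Over the 34 genes the median gap was 0.196 for the R-SDS mice and 0.221 for the Control mice, against 0.173 and 0.177 over all genes. The gaps of the groups ran alike, since 14 of the 34 genes were higher in the mouse numbered 1 in both groups, 12 higher in the mouse numbered 2 in both, and 8 went opposite ways. The sign was thus shared in 76.5% of these genes and 72.0% of all genes. The direction differed with signal. Of the 15 genes with a mean of at least 8, which hold all measured granins and processing genes, 12 were higher at number 1 in both groups, or 80.0%, against 60.6% of all genes of that range. Of the 15 with a mean below 6.5, 8 were higher at number 2 in both groups, or 53.3%, against 51.0%. These limits of signal were set after the values were seen. The interquartile range of the arrays differed in the same way, at 3.37 in R-SDS 1 and 3.11 in R-SDS 2, against 3.34 in Control 1 and 3.06 in Control 2. The labels do not say what the numbers stand for, and the part of the arrays' range in these gaps was not tested.

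**Figure D4:**
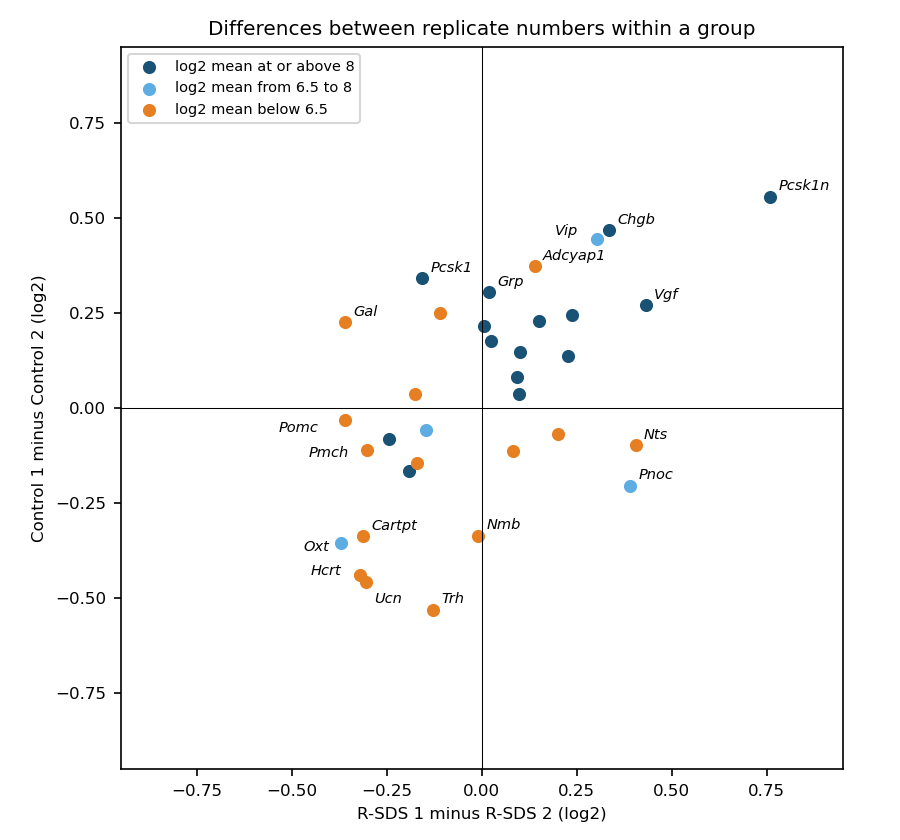
The horizontal axis gives R-SDS 1 minus R-SDS 2 and the vertical axis Control 1 minus Control 2, in log2 units, with 1 point a gene coloured by its mean signal. Bright genes such as Pcsk1n, Chgb and Vgf lie to the upper right, where number 1 is higher in both groups, and dim ones such as Hcrt, Ucn and Trh to the lower left.

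The sequences before the start sites of these genes were read to show what they share apart from being peptide genes. Many peptide genes are textbook targets of CREB, the factor that binds the cyclic AMP response element TGACGTCA, for which the somatostatin promoter was an early model. The 250 bases before the start site were available for 29 of the 35 listed genes from RefSeq (GRCm38.p6), with none for Penk, Pnoc, Crh, Grp, Vgf and Cpe. TGACGTCA, which reads the same on both strands, occurred in 6 of the 29, against 1.77% of 27025 genes with such a sequence. The shorter TGACG, searched on both strands and contained in the longer motif, occurred in 17 of the 29, Pcsk2 among them, against 19.8%. The 6 genes with the full element are shown with it in capitals, read along the gene's strand, because they include the somatostatin gene and the granins Chgb and Scg2:
Sst, chr16:23890874-23890903, minus strand, element ending 40 bases before the start: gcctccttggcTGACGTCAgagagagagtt
Cartpt, chr13:99900777-99900806, minus strand, 104 bases before: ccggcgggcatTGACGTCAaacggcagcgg
Ucn, chr5:31138921-31138950, minus strand, 36 bases before: atgttcttcgcTGACGTCAgtcggagctgt
Chgb, chr2:132781559-132781588, plus strand, 64 bases before: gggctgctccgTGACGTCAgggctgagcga
Scg2, chr1:79440076-79440105, minus strand, 60 bases before: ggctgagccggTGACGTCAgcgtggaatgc
Pcsk1, chr13:75089768-75089797, plus strand, 70 bases before: ccaggtagatcTGACGTCAagagatggctt

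The 6 genes with the full element overlapped between R-SDS and Control, with differences between -0.08 and 0.11 and a median of -0.07. Of the 7 genes that were lower without overlap, 6 had a sequence, since Penk had none. The shorter motif was held by 17 of the 29 listed genes with a sequence and by 19.8% of all genes. Of the 6 lower genes with a sequence, 3 held only this shorter motif, so it does not set them apart from the list. It stands in capitals in these windows as TGACG or its reverse complement CGTCA:
Tac1, chr6:7554853-7554879, plus strand, 192 bases before the start: ccctaaaattgCGTCAtttcgaacaca
Tac1, chr6:7555007-7555033, plus strand, 38 bases before: ctctacaggctCGTCAcgcctgagata
Nts, chr10:102490569-102490595, minus strand, 161 bases before: ttagggaagatCGTCActttccatcaa
Scg5, chr2:113829251-113829277, minus strand, 170 bases before: aaggaggtaaaTGACGttcataggggt
A match of letters is a description of the sequence and does not show that a factor binds there.

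The rest of the peptide pathway was read from lists of genes outside the 34. Other peptide precursors, 35 of 38 measured, had a higher mean in 18 and a lower mean in 17, with a median of 0.02. Without overlap, 4 of the 35 were higher and 1 lower, against 9.52% and 8.81% of all genes, and the largest differences were 0.33 for Uts2b (SE 0.18), a urotensin-related precursor, and 0.32 for Adm (SE 0.18), the adrenomedullin gene. Other processing genes, 11 of 11 measured, had a higher mean in 6 and a lower mean in 5, with the largest difference of 0.39 for Cpz (SE 0.16), a carboxypeptidase, and then 0.26 for Atp7a (SE 0.21), the copper pump that supplies Pam. Genes of the dense-core vesicle membrane and its release, 14 of 14, had a higher mean in 7 and a lower mean in 7, with Syt10 at 0.17 (SE 0.20) and Ica1 at -0.11 (SE 0.17). None of these 3 lists held a gene past the adjusted p or the thresholds of the study.

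Peptidases that degrade released peptides, 11 of 12 measured, had a higher mean in 5 and a lower mean in 6. Ace, angiotensin-converting enzyme, stood apart with log2 values of 9.10 and 6.49 in R-SDS and 7.06 and 6.42 in Control. Its high value in R-SDS 1 moved with the choroid plexus genes, and between the arrays numbered 2 it differed by 0.07. Immediate early genes, which neuronal activity induces and some of which act on peptide genes, had a higher mean in 7 of 8, with a median of 0.22. Among all genes 10657 of 19938 had a higher mean, with a median of 0.01. The median of the 8 was 0.36 between the arrays numbered 1 and 0.12 between those numbered 2, where 3 of the 8 were lower in R-SDS. Npas4 had the lower mean, with values of 6.36 and 6.59 in R-SDS and 7.35 and 6.77 in Control, and its difference of -0.59 (SE 0.22) passed the thresholds of the study but not the adjusted p (1 in limma). Npas4 differed by -0.99 between the arrays numbered 1 and by -0.18 between those numbered 2. Nr4a1 differed by 0.45 (SE 0.29), with 0.77 between the arrays numbered 1 and 0.12 between those numbered 2.

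**Figure D5:**
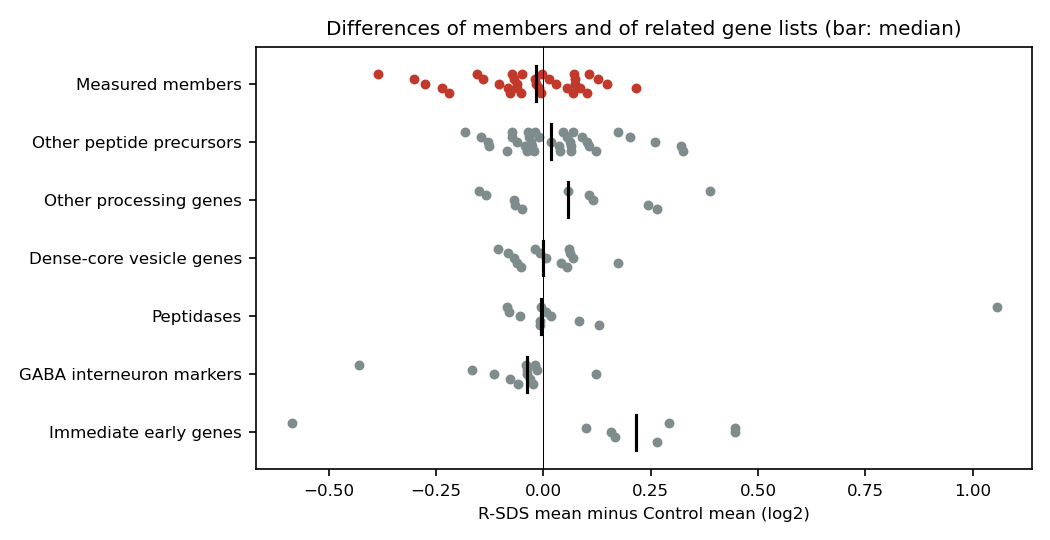
Each point is a gene and the horizontal axis its R-SDS mean minus its Control mean in log2 units; black bars are list medians. The 34 genes (red) centre slightly below 0, other precursors slightly above it, and Ace and Npas4 lie far from the rest of their lists.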

How the data were processed

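Total RNA from 2 R-SDS and 2 Control hippocampi was hybridised to Affymetrix Mouse Gene 1.0 ST arrays. The labels and the methods name different labelling kits. The deposited values are log2 RMA signals, normalised by the authors in Affymetrix Expression Console. They hold no detection call, and array number limits precision. Rows with exactly 1 symbol (21789 of 35556) were tested with limma 3.58.1 (R 4.3.3), two-sided, with Benjamini-Hochberg adjustment over all of them and no block. For genes with several rows, the row with the highest mean was used. The fit was tested on simulated data with independent noise in each array. That checks its estimates of known changes, but not its p-values where equally numbered arrays share deviations. Named with values in all 4 arrays were the genes without overlap or with an absolute difference of at least 0.3, the 6 brightest and Vgf, and Pnoc and Chga after their values were seen. At most 2 genes were named from each other list by size of difference. Members and lists were chosen with earlier results of these data known. Levels were not compared between genes, since probes differ in affinity.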

Additional observations from a re-analysis of the deposited data

How the results depend on the processing

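None of the 34 genes passed the adjusted p in any alternative. Penk kept its sign in all of them, but leaving out 1 array could not turn it, since its groups do not overlap. With the replicate block 0 transcripts passed it, the smallest adjusted p of the 34 genes was 0.960, and Penk and Tac1 had an unadjusted p under 0.05. The deviations of equally numbered arrays had a correlation of 0.517, but with 2 numbers the arrays share only a number. In this balanced layout the block cannot change a difference. Leaving out 1 array gave 0 to 46 transcripts higher and 0 to 3 lower past the adjusted p, with the lone array assumed to vary like the others.

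Past the thresholds of the study, 32 transcripts were higher in R-SDS, against 54 with the replicate block, 21 without dim transcripts, 6 in the methods' t-test and 74 to 416 leaving out 1 array. There were 42 lower, against 6 without dim transcripts, 13 in the methods' t-test and 67 to 323 leaving out 1 array. Of the 34 genes, 0 to 2 met these thresholds leaving out 1 array, Nts without R-SDS 1 and Penk and Pcsk1n without R-SDS 2. Fewer arrays make non-overlap easier. Leaving 1 out gave 5 to 15 of the 34 genes higher and 10 to 16 lower without overlap. Over all genes the shares were 27.1% to 34.3% and 25.3% to 30.2%. Lower genes were 29.4% of the 34 without R-SDS 1, against 25.3% of all genes, and 47.1% without Control 2, against 26.7%. Higher genes were 44.1% of the 34 without Control 1, against 34.3% of all genes, and 14.7% without Control 2, against 28.8%. Quantile normalisation gave 2 higher (Cort and Pam) and 9 lower, the 7 with Chga and Scg2, against 12.5% and 9.2% of all genes. Without dim transcripts 0 were higher, since Crh was removed. The median difference of the 34 ran between -0.0667 and -0.0226 leaving out 1 array.

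Quantile normalisation turned the sign of Tac2 (0.0114), Avp (0.000159), Pmch (0.0199) and Cpe (-0.0150). Leaving out 1 array turned it for 24 genes, none of them past the test, with these ranges: Sst (-0.174 to 0.0183), Cort (-0.000321 to 0.148), Npy (-0.0483 to 0.196), Vip (-0.153 to 0.291), Cck (-0.0429 to 0.187), Tac2 (-0.141 to 0.108), Grp (-0.0246 to 0.281), Pnoc (-0.198 to 0.192), Adcyap1 (-0.249 to 0.125), Avp (-0.104 to 0.0674), Oxt (-0.246 to 0.123), Hcrt (-0.134 to 0.305), Pmch (-0.162 to 0.14), Cartpt (-0.221 to 0.116), Trh (-0.316 to 0.214), Gal (-0.0783 to 0.282), Ucn (-0.298 to 0.159), Chgb (-0.128 to 0.34), Scg2 (-0.162 to 0.0143), Scg3 (-0.115 to 0.102), Vgf (-0.187 to 0.245), Pcsk1 (-0.253 to 0.089), Pcsk1n (-0.163 to 0.596), Cpe (-0.0606 to 0.087). The sign was the same in every alternative that used both groups' means for 10 genes, 8 of which cannot change sign by leaving out an array because their groups do not overlap.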
